A study of Mus musculus with 8 samples.

Results

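Voltage-gated calcium channel genes were followed across the nuclei of the mouse striatum: 8 genes of the pore-forming subunit (Cacna1a, Cacna1b, Cacna1c, Cacna1d, Cacna1e, Cacna1g, Cacna1h and Cacna1i) and 2 genes of the auxiliary alpha2delta subunit (Cacna2d1 and Cacna2d3). They were chosen by name, as 10 of the 32285 gene rows of the expression matrices, and all 10 were found there. The striata came from 32 mice, 12 weeks of age, of 8 inbred strains, with 4 mice per strain and no treatment: the wild-derived CAST/EiJ, WSB/EiJ and PWK/PhJ, and the laboratory strains A/J, NOD/ShiLtJ, C57BL/6, 129S1/SvImJ and NZO/HlLtJ. Each of the 4 batches mixed the nuclei of 8 mice, 1 per strain, and was read with the 10x Genomics multiome assay, which measures nuclear RNA and open chromatin in the same nucleus. The strains are inbred lines that differ over the whole genome, so no difference between them can be tied to 1 locus. The labels write C57BL/6J and NZO/H1LtJ where the table of nuclei writes C57BL_6NJ and NZO_HlLtJ, and the names C57BL/6 and NZO/HlLtJ are used here. Batches were balanced for sex, but the sex of a mouse is not given in the table and did not enter the fits.

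A voltage-gated calcium channel opens when the membrane depolarizes and lets calcium into the cell. The pore-forming subunit fixes the type of current: Cacna1a encodes that of P/Q-type and Cacna1b that of N-type channels, which drive transmitter release at nerve terminals. Cacna1c and Cacna1d encode L-type channels, which couple depolarization to gene expression and, in striatal projection neurons, act in dendrites and spines. Cacna1e encodes the R-type channel, and Cacna1g, Cacna1h and Cacna1i encode T-type channels, which open at voltages near rest. The alpha2delta proteins bind the channel from outside and raise its number at the surface.

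The authors' 55672 annotated nuclei in 18 clusters were used, and the 4 batches held 11826 to 15626 of them with medians of 3232 to 4931 unique molecular identifiers (UMIs, here called counts) per nucleus. Batch 3 was the shallowest. Of 54141 distinct barcode sequences among the kept nuclei, 1517 occurred in 2 or more batches, and nuclei were told apart by batch and barcode. The markers of Drd1+ neurons (Drd1, Pdyn), Drd2+ neurons (Drd2, Penk, Adora2a, Gpr6), oligodendrocytes (Mbp, Mog, Mobp), astrocytes (Slc1a3, Aqp4, Gja1, Slc1a2) and macrophages (Csf1r, C1qa, P2ry12, Cx3cr1) were each highest in the cluster of that name. The genes given for macrophages were listed for microglia and macrophages together. That cluster keeps the authors' name, and microglia and macrophages were not told apart in it. Of the other genes listed for Drd1+ neurons, Tac1 was highest in the second Drd1+ cluster and Isl1 in Chat+ interneurons. Counts were summed per mouse and cluster into libraries, whose totals ran from 1710451 to 9416806 in Drd1+ neurons and from 27325 to 365425 in macrophages. Levels are counts per 1000000 counts of the library (CPM). Fewer transcribing nuclei and less RNA per nucleus cannot be told apart in such sums.

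The 10 genes are long: by RefSeq's GRCm38.p6 annotation they span from 62.1 kb (Cacna1h, chromosome 17) to 818 kb (Cacna2d3, chromosome 14), and the index of accessible regions, made by the authors on the mm10 (GRCm38) build, lists 18 to 243 regions within them. Of the 10 promoter windows that RefSeq's table gives for 7 of the genes, each 250 bases before to 50 bases after a start, 6 overlapped a listed region, against 53.1% of all 32851 windows. Of those 6, 4 are shown, 1 for each of 4 genes, because these genes carried the widest strain differences in Drd1+ and Drd2+ neurons (Cacna2d3, Cacna1b) or differed between neurons and glia (Cacna1c, Cacna1d). Only the 250 bases before the start are printed, 5′ to 3′ on the gene's strand, with capitals marking the GC box, GGGCGG on either strand.
Cacna2d3, chr14:29721865-29722114, minus strand: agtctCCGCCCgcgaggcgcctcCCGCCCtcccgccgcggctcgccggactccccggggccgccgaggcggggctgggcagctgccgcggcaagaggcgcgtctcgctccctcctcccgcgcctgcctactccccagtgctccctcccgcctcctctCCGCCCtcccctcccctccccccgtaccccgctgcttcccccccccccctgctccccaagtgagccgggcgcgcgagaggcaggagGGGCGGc
Cacna1b, chr2:24763153-24763402, minus strand: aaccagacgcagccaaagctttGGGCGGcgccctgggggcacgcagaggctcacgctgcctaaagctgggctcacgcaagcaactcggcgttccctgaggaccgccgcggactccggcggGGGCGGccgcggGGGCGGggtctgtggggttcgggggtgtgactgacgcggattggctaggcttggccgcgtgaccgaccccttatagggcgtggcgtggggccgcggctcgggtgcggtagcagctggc
Cacna1c, chr6:119108496-119108745, minus strand: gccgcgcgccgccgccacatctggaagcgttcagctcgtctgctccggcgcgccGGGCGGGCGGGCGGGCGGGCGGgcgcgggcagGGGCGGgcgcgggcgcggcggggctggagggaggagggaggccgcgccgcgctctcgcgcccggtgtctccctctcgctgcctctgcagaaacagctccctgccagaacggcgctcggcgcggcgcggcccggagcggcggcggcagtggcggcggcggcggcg
Cacna1d, chr14:30353487-30353736, minus strand: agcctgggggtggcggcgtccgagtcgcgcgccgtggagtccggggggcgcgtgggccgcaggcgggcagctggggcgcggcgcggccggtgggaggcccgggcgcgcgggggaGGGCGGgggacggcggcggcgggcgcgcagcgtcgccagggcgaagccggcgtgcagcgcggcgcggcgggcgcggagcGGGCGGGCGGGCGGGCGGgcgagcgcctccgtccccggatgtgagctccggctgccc
These stretches held 4, 3, 6 and 5 GC boxes, counting overlapping matches, and were 80.0%, 72.0%, 82.8% and 86.4% G or C. The GC box occurred in 32.7% of all windows of that length. None of the 4 held the TATA box (TATAAA, 12.4% of windows), the cAMP response element (TGACGTCA, 1.55%) or the E-box (CACGTG, 6.02%) on either strand. Cacna1c and Cacna1d each have a further annotated start upstream of the one shown, at 119196410 to 119196659 on chromosome 6 and 30491157 to 30491406 on chromosome 14 for the 250 bases before it, and no listed region overlapped the windows of those starts. A further Cacna1c start, with 118757975 to 118758224 before it, did overlap a listed region and is not printed: it held 0 GC boxes and was 50.4% G or C. The window of Cacna1e, the other one that overlapped a region, held 0 GC boxes and was 52.0% G or C, so the GC content of the 4 shown does not stand for all 6.

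Across clusters, the levels below describe the authors' groups and carry no test, since the clusters were made from the same RNA. Of the 10 genes, 8 were highest in a neuronal cluster, by the mean over mice with at least 10 nuclei and among the 15 clusters with at least 3 such mice. The other 2, Cacna1c and Cacna1h, had their highest mean in the cluster named mural cells. With all nuclei summed, Cacna1c was at 1092 CPM there and at 1097 in the second Drd1+ cluster. Along each gene's order of clusters, the ranges over mice of neighbouring clusters overlapped in 139 of 140 pairs. The exception was Cacna1e, between Chat+ interneurons and the cluster Unknown. Neighbours in such an order are the closest clusters, so this does not describe clusters further apart. Cacna2d3, for example, ran from 1774 to 3444 CPM in Drd1+ neurons and from 5.17 to 67.3 in oligodendrocytes. The ranges were not paired by mouse, and for Drd1+ and Drd2+ neurons the differences within mice are given separately.

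Among the genes of presynaptic channels, Cacna1a was at 628 ± 132 CPM (SD, n = 20 mice) in the first cluster of Slc17a7+ excitatory neurons, 600 ± 140 (n = 32) in Nxph1+ interneurons, 446 ± 62.2 (n = 32) in Drd1+ neurons and 429 ± 58.1 (n = 32) in Drd2+ neurons. It was at 219 ± 192 CPM in macrophages, 52.4 ± 24.8 in astrocytes and 31.6 ± 13.7 in oligodendrocytes (n = 32 each). The SD of macrophages was nearly as large as their mean, and their strains are taken up below. Cacna1b was highest in Chat+ (cholinergic) interneurons, at 451 ± 160 CPM over the 3 mice with enough nuclei, and lay at 173 ± 24.8 in Drd1+ and 152 ± 19.5 in Drd2+ neurons. In macrophages, oligodendrocytes and astrocytes Cacna1b was at 9.06 ± 9.57, 6.62 ± 3.63 and 5.89 ± 6.84 CPM.

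The L-type genes split over clusters in different ways. Cacna1c was at 1086 ± 180 CPM in the second Drd1+ cluster, 903 ± 115 in Drd2+ neurons and 855 ± 110 in Drd1+ neurons. It was at 858 ± 304 CPM (n = 26) in the cluster Unknown and at 335 ± 71.9 (n = 20) in the first Slc17a7+ cluster. Cacna1d ran the other way among neurons, at 742 ± 94.7 CPM (n = 20) in the first Slc17a7+ cluster and 383 ± 42.3 in Drd1+ neurons. In macrophages, Cacna1d was at 386 ± 87.7 CPM, beside 383 in Drd1+ neurons, while Cacna1c was at 40.3 ± 46.6. The mural cluster held Cacna1c at 1163 ± 251 CPM (n = 20), but the 9 projection neuron genes taken for comparison (Drd1, Ppp1r1b, Rgs9, Pde10a, Bcl11b, Adcy5, Rarb, Meis2 and Foxp1) stood there at a median of 75.7% of their level in Drd1+ neurons, so the part of neuronal RNA in that value was not tested.

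Cacna1e had its highest means in Drd2+ neurons, at 993 ± 107 CPM, and Drd1+ neurons, at 755 ± 80.0, among clusters with at least 3 such mice. The second and first Slc17a7+ clusters followed at 723 ± 111 (n = 16) and 688 ± 105 (n = 20), with ranges that overlapped that of Drd1+ neurons. Sst+ interneurons had a mean of 794 CPM over only 2 mice. The second Drd1+ cluster was at 472 ± 84.4 CPM. The T-type genes had different orders from each other. Cacna1g was nearly absent from the main Drd1+ and Drd2+ clusters, at 0.429 ± 0.491 and 0.449 ± 0.450 CPM. It was at 67.3 ± 36.2 CPM (n = 16) in the second Slc17a7+ cluster, 41.3 ± 19.7 in Nxph1+ interneurons and 26.9 ± 15.2 in the second Drd1+ cluster. Cacna1i was at 69.4 ± 22.5 CPM in the second Drd1+ cluster, 65.1 ± 8.30 in Drd2+ and 54.4 ± 6.64 in Drd1+ neurons. Cacna1h was at 54.97 ± 6.53 CPM in Drd2+ and 54.0 ± 7.74 in Drd1+ neurons, against 21.6 ± 13.4 in the second Drd1+ cluster. Its highest mean, in the mural cluster, was 60.4 ± 37.7 CPM (n = 20, range 0 to 155), and the part of neuronal RNA in that value was not tested.

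Of the alpha2delta genes, Cacna2d3 had its highest means in cholinergic and projection neurons, at 2979 ± 701 CPM (n = 3) in Chat+ interneurons, 2786 ± 424 in Drd1+ and 2529 ± 422 in Drd2+ neurons. It was at 1747 ± 533 CPM (n = 20) in the mural cluster, 1480 ± 252 in the second Drd1+ cluster and 1037 ± 539 (n = 29) in endothelium, and the part of neuronal RNA in the mural and endothelial values was not tested. It was lower in the first Slc17a7+ cluster, at 226 ± 147 CPM, and in oligodendrocytes, at 39.2 ± 13.3. Cacna2d1 had a different order, at 1004 ± 197 CPM (n = 16) in the second Slc17a7+ cluster, 566 ± 39.8 in Drd1+ neurons and 69.4 ± 59.7 in Chat+ interneurons (n = 3). In oligodendrocytes and astrocytes Cacna2d1 was at 116 ± 49.6 and 93.0 ± 40.6 CPM.

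**Figure D1:**
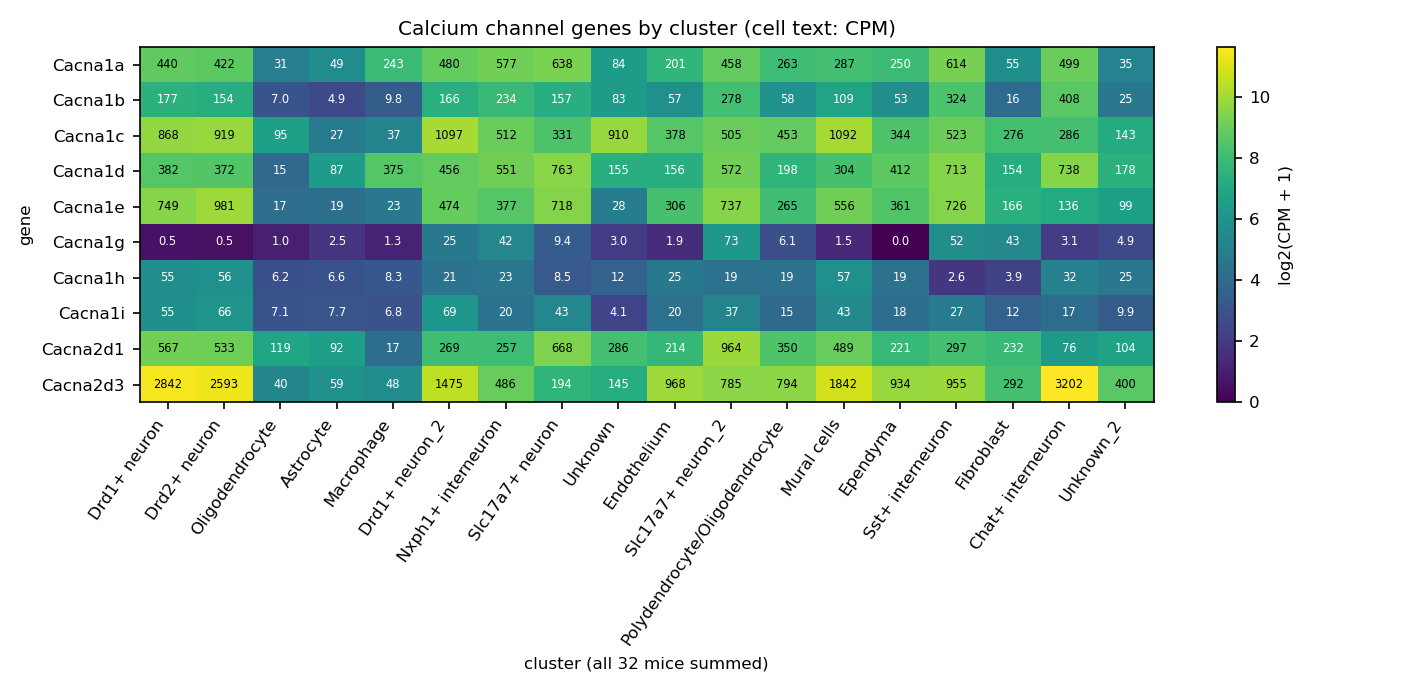
Each cell gives the CPM of 1 gene (rows) in 1 cluster (columns) with the counts of all 32 mice summed, and color is log2(CPM + 1). Cacna2d3 stands at 2842 CPM in Drd1+ neurons and 39.9 in oligodendrocytes, and Cacna1g at 0.50 in Drd1+ and 72.9 in the second Slc17a7+ cluster.

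The pattern of each gene over the 18 clusters was set beside that of the other genes that reached 10 CPM in some cluster, 15711 genes with the members, by Pearson's r of log2(CPM + 1). The most like Cacna1a was Gm16183, with r = 0.97, a gene annotated within Cacna1a, so their reads could be split between them. The most like Cacna2d3 was Gm48003 with 0.99. For Cacna1b it was Hecw1 (0.98), for Cacna1e Dlgap2 (0.98), for Cacna1i Camk2b (0.95), for Cacna1d Slc9a7 (0.94), for Cacna1c Prkar2b (0.91), for Cacna2d1 Chn1 (0.89), for Cacna1g Mkx (0.87) and for Cacna1h Kcna4 (0.85). The second in each case was Gm40841 for Cacna1a (0.94), Gm48006 for Cacna2d3 (0.96), Nyap2 for Cacna1b (0.97), Trank1 for Cacna1e (0.97), Cacng3 for Cacna1i (0.94), Acvr2a for Cacna1d (0.93), Scn3a for Cacna1c (0.91), Abi2 for Cacna2d1 (0.88), Doc2a for Cacna1g (0.84) and Nars2 for Cacna1h (0.83). These values describe 18 points that share mice and depth, and the clusters range widely in size. Further genes with rows of their own overlap Cacna1c (Dcp1b), Cacna1d (Chdh and Dcp1a), Cacna1h (Tpsg1), Cacna2d1 (Gm43000) and Cacna2d3 (Lrtm1), at 0.154 to 104 CPM in Drd1+ neurons, and whether the counting used strand is not given in the sources used here.

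Within the same mice, Drd2+ and Drd1+ neurons were set side by side as the log2 ratio of Drd2+ over Drd1+ levels. Cacna1e was higher in Drd2+ neurons in 32 of 32 mice, with a median ratio of 0.44 and a range from 0.25 to 0.57. Cacna1i was higher in 31 of 32 mice, with a median of 0.26 and a range from -0.13 to 0.59. Cacna1c was higher in 28 of 32, with a median of 0.09. Cacna2d3 was lower in Drd2+ neurons in 32 of 32 mice, with a median of -0.12 and a range from -0.24 to -0.01. Cacna1b was lower in 28 of 32 mice, with a median of -0.16.

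The other 4 tested genes had medians closer to 0, though that of Cacna2d1 was nearly as far from it as that of Cacna1c. Medians were -0.08 for Cacna2d1 (lower in 23 of 32 mice), -0.02 for Cacna1a (20 of 32), -0.0023 for Cacna1d (lower in 17 of 32) and 0.03 for Cacna1h (higher in 17 of 32). Cacna1h had the widest spread between mice, with an SD of 0.24, and its median turned to -0.01 without batch 4. Cacna1g did not pass the filter on low counts in these neurons and has no ratio.

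**Figure D2:**
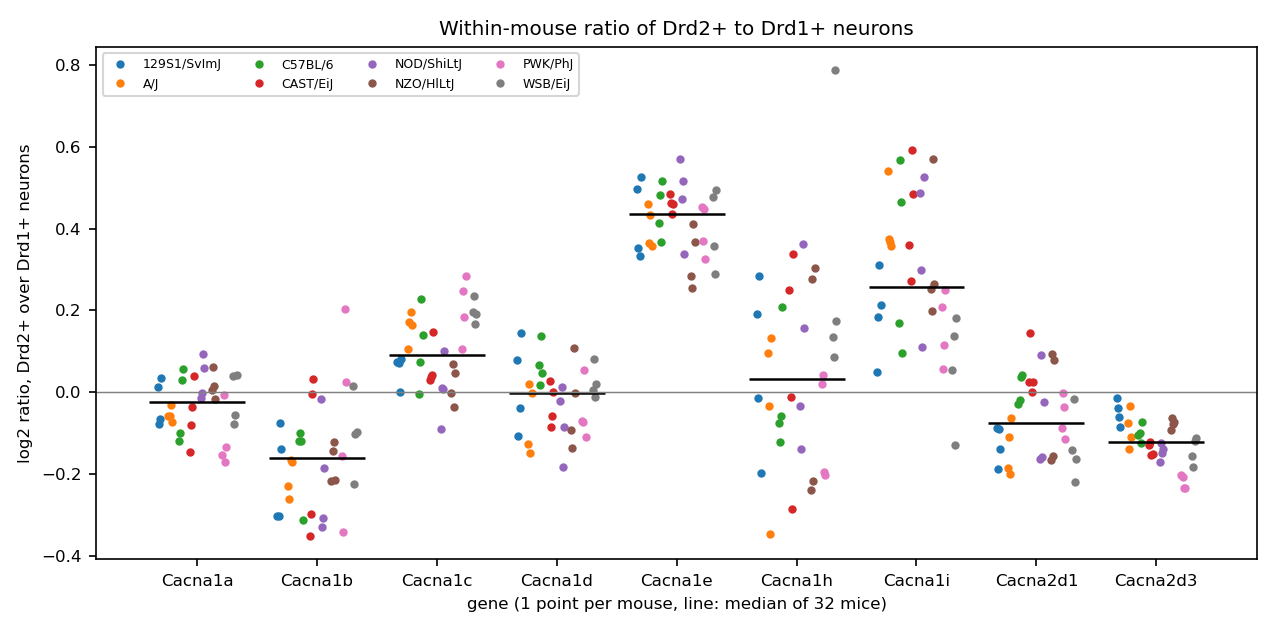
Points are the log2 ratio of Drd2+ over Drd1+ neurons (vertical axis) for each of 32 mice, per gene (horizontal axis) and colored by strain, and black lines are medians. All 32 points of Cacna1e lie above 0 and all 32 of Cacna2d3 below, with the 4 PWK/PhJ mice at the bottom for Cacna2d3.

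Differences between strains were tested with edgeR's quasi-likelihood test of the strain term with batch as a block, adjusted by Benjamini-Hochberg over all genes of a cluster and called at an adjusted p under 0.05. In Drd1+ neurons 7 of the 9 members that passed the filter on low counts were called, against 61.7% of all 13431 genes tested, and in Drd2+ neurons 8 of 9, against 55.9% of 12799. The median span between the highest and the lowest strain was 0.40 log2 units for the members in Drd1+ neurons against 0.62 for all genes tested, and 0.46 against 0.61 in Drd2+ neurons. In the second Drd1+ cluster 5 of 9 members were called, against 17.3%, with 2 left without batch 2 and 3 without batch 3.

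In glia fewer members passed the filter. Of 6 tested, 4 were called in oligodendrocytes, against 34.8% of all genes tested, 4 of 5 in astrocytes (2 without batch 1), against 21.5%, and 2 of 2 in macrophages, against 24.8%. Members that passed there through the strains where they are high had to differ, so these counts carry no weight of their own, and the values by mouse are given below. No member was called in Nxph1+ interneurons (0 of 7, background 1.53%), endothelium (0 of 7, 3.23%) or the cluster Polydendrocyte/Oligodendrocyte (0 of 6, 1.24%) by edgeR, where 1, 2 and 3 members had an unadjusted p under 0.05. DESeq2 called 0, 0 and 1 of them.

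Cacna2d3 differed most between strains in the projection neurons, and PWK/PhJ stood apart. In Drd1+ neurons its 4 PWK/PhJ mice were at 2007, 1969, 1713 and 1798 CPM in batches 1 to 4, and the 4 A/J mice at 3655, 3437, 2815 and 3256. All 4 PWK/PhJ mice lay below the other 28, which ran from 2304 to 3655 CPM. Drd2+ neurons showed the same separation, with PWK/PhJ at 1728, 1689, 1428 and 1502 CPM and the other 28 mice at 2035 to 3424. Against the mean of the other 7 strains, PWK/PhJ was lower by a log2 fold change of -0.65 (SE 0.0455, edgeR adjusted p = 8.07e-16) in Drd1+ neurons and -0.76 (SE 0.0493, 1.89e-17) in Drd2+ neurons. A/J was higher by 0.28 and 0.31 (adjusted p = 1.65e-06 and 6.23e-07), and in the second Drd1+ cluster A/J was again the highest strain and PWK/PhJ the lowest, at 1902 ± 182 and 1176 ± 134 CPM (strain term adjusted p = 1.01e-05).

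Cacna1b, the N-type pore gene, had the same strains at its ends. In Drd1+ neurons PWK/PhJ mice were at 127, 150, 95.6 and 130 CPM and A/J mice at 207, 223, 220 and 213. The PWK/PhJ range overlapped only that of CAST/EiJ (148 to 176 CPM), and the A/J range only that of 129S1/SvImJ, through 1 mouse at 208. In Drd2+ neurons all 4 PWK/PhJ mice, at 113, 117, 108 and 130 CPM, lay below the other 28, of which the lowest was at 134. The contrast of PWK/PhJ was -0.53 (SE 0.0605, adjusted p = 1.45e-09) in Drd1+ and -0.43 (SE 0.0629, 3.53e-07) in Drd2+ neurons, and that of A/J 0.37 and 0.31 (1.21e-06 and 4.16e-05). Over the 32 mice, with batch means removed, Cacna1b and Cacna2d3 went together in Drd1+ neurons with Pearson's r = 0.84, the largest among all pairs of tested members. These mice share strains, so the value is given without a p.

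Cacna1c, an L-type gene, was lowest in NZO/HlLtJ in Drd1+ and Drd2+ neurons. In Drd2+ neurons its 4 NZO/HlLtJ mice were at 706, 742, 578 and 781 CPM, and the other 28 ran from 770 to 1158, so 1 NZO/HlLtJ mouse overlapped them. In Drd1+ neurons NZO/HlLtJ mice were at 716, 715, 601 and 766 CPM and the others at 679 to 1109, with overlap. NZO/HlLtJ was lower than the mean of the other strains by a log2 fold change of -0.42 (SE 0.0620, adjusted p = 9.67e-07) in Drd2+ and -0.33 (SE 0.0650, 1.62e-04) in Drd1+ neurons. The order was another in the second Drd1+ cluster (edgeR adjusted p = 0.00323, lost without batch 2, 0.0677, or batch 3, 0.0578), where WSB/EiJ had the lowest mean at 994 ± 64.9 CPM (SD, n = 4) and NZO/HlLtJ stood at 1164 ± 99.4. In Nxph1+ interneurons NZO/HlLtJ had the highest mean, 1034 ± 384 CPM, and the strain term was not called (0.166), though it was without batch 2 (0.0141) and with no expression filter (2.13e-05). The 9 projection neuron genes summed in Drd2+ neurons to 10100 ± 499.5 CPM in NZO/HlLtJ, the lowest strain mean, and 11811 ± 666 in A/J, the highest. In Drd1+ neurons WSB/EiJ was lowest, at 9482 ± 201.5, with NZO/HlLtJ at 9656 ± 523 and A/J highest, at 10986 ± 615. Their part in the result was not tested.

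Cacna1a set 3 strains above 2 others, and the other 3 strains overlapped both. In Drd1+ neurons NZO/HlLtJ (475 to 581 CPM), PWK/PhJ (463 to 565) and C57BL/6 (481 to 524) lay above A/J (373 to 410) and NOD/ShiLtJ (374 to 407) without overlap, 12 mice against 8. Contrasts were 0.22, 0.22 and 0.20 for the first 3 (adjusted p = 0.00895, 0.00653 and 0.0315) and -0.24 and -0.23 for A/J and NOD/ShiLtJ (0.00801 and 0.0137). In Drd2+ neurons NZO/HlLtJ stood at 511 ± 60.6 CPM (SD, n = 4) and A/J at 365 ± 12.3, and the contrasts of NZO/HlLtJ, C57BL/6 and A/J were called, though that of C57BL/6 (adjusted p = 0.0379) held under only 4 of 9 alternative settings, with adjusted p up to 0.215. Each of these Drd1+ contrasts of Cacna1a lost its call under 2 to 5 of 9 alternative settings, with adjusted p up to 0.0793 to 0.162.

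Cacna1d, the other L-type gene, was highest in PWK/PhJ in Drd1+ neurons, at 451, 445, 436 and 426 CPM, and lowest in WSB/EiJ, at 343, 313, 336 and 338. Those mice did not overlap, and CAST/EiJ (333 to 355 CPM) was also low. Contrasts were 0.23 for PWK/PhJ (adjusted p = 9.12e-05), -0.23 for WSB/EiJ (3.01e-04) and -0.19 for CAST/EiJ (0.00131). Those of 129S1/SvImJ (0.15) and NZO/HlLtJ (-0.13) were also called, and each held under only 3 of 9 alternative settings. In Drd2+ neurons C57BL/6 was the highest strain, at 425 ± 16.0 CPM, and CAST/EiJ the lowest, at 329 ± 16.2. PWK/PhJ, at 419 ± 23.7, and WSB/EiJ, at 332 ± 6.44, lay near them. The interaction of strain and cluster, described below, was not called for Cacna1d (edgeR adjusted p = 0.780).

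Cacna1e, the R-type gene, was highest in CAST/EiJ and lowest in A/J in both kinds of projection neuron. In Drd1+ neurons CAST/EiJ mice were at 862.5, 928, 787 and 826 CPM and A/J mice at 687, 692, 582 and 629, with no overlap between those strains. The contrast of A/J was -0.26 (SE 0.0502, adjusted p = 1.56e-04) in Drd1+ and -0.27 (SE 0.0485, 3.43e-05) in Drd2+ neurons, and that of CAST/EiJ 0.19 and 0.24 (0.00156 and 6.25e-05).

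Cacna1h, a T-type gene, was called in both clusters, with 129S1/SvImJ the highest strain (63.4 ± 10.9 CPM in Drd1+ and 64.5 ± 1.03 in Drd2+ neurons) and PWK/PhJ at 49.8 ± 1.68 and 46.5 ± 5.56. Its call in Drd1+ neurons (adjusted p = 0.0199) was lost without batch 2 (0.233) and without batch 4 (0.110). Cacna2d1 was called in Drd2+ neurons (2.23e-04), where CAST/EiJ was at 599 ± 57.1 CPM and A/J at 484 ± 48.1, and not in Drd1+ neurons (0.173), where strain means ran from 541 to 602. Its call in Drd2+ neurons was lost without the replicate block (edgeR adjusted p = 0.0588). Its contrasts of CAST/EiJ and A/J there held under 6 and 5 of 9 alternative settings. Cacna1i was called in neither (0.0747 in Drd1+ and 0.124 in Drd2+ neurons).

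**Figure D3:**
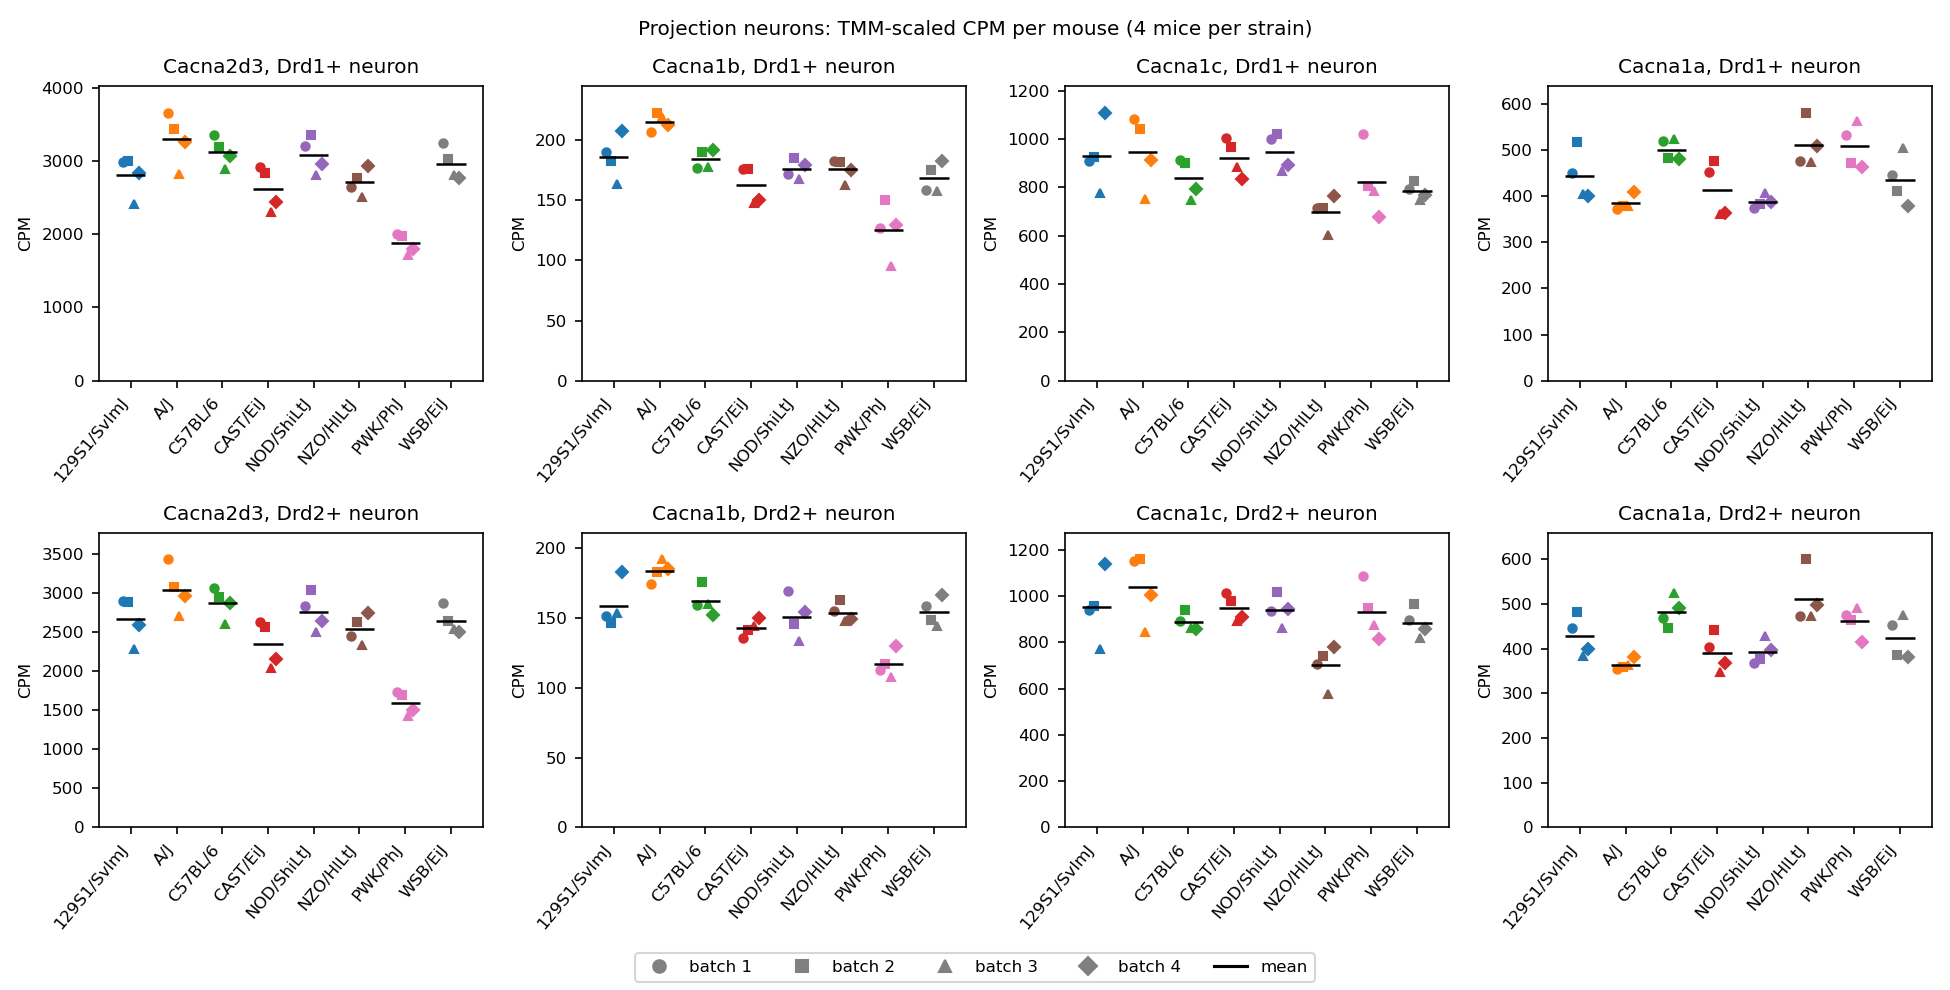
TMM-scaled CPM of 4 genes (columns) in Drd1+ and Drd2+ neurons (rows), with 1 symbol per mouse, its shape giving the batch, and a black line at the mean of each strain's 4 mice. PWK/PhJ sits below all other strains for Cacna2d3 in both rows, and NZO/HlLtJ has the lowest mean for Cacna1c.

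By strain, the number of the 9 tested members that differed from the mean of the other 7 strains is read against the share of all genes called in the same contrast. These contrasts share mice, since each strain is part of the mean of the others. In Drd1+ neurons 4 of 9 were called in A/J (background 17.2%), 4 in NZO/HlLtJ (19.7%), 4 in PWK/PhJ (34.3%), 2 each in 129S1/SvImJ (12.3%), C57BL/6 (13.9%), CAST/EiJ (32.8%) and NOD/ShiLtJ (15.9%), and 1 in WSB/EiJ (17.0%). In Drd2+ neurons 6 of 9 were called in A/J (15.2%), 4 in PWK/PhJ (30.3%), 3 each in C57BL/6 (11.1%) and CAST/EiJ (28.1%), 2 each in 129S1/SvImJ (11.1%) and NZO/HlLtJ (18.5%), and 1 each in NOD/ShiLtJ (12.1%) and WSB/EiJ (15.3%). Over all strains 21 pairs of member and strain were called in Drd1+ neurons, and 13 without batch 2. Of the 21 calls 10 held under all 9 alternative settings: 3 of 4 in A/J, 3 of 4 in PWK/PhJ, 2 of 2 in CAST/EiJ, 1 of 4 in NZO/HlLtJ (Cacna1c), 1 of 1 in WSB/EiJ and 0 of 2 each in 129S1/SvImJ, C57BL/6 and NOD/ShiLtJ. Without batch 2 alone, NZO/HlLtJ lost Cacna1a, Cacna1d and Cacna1i, and 129S1/SvImJ lost Cacna1d and Cacna1h, the latter 2 also without batch 4. Leaving out batch 2 also cost A/J the call of Cacna1a and NOD/ShiLtJ those of Cacna1a and Cacna2d3. Of the 22 calls in Drd2+ neurons 9 held under all 9 settings, 4 in A/J, 2 each in NZO/HlLtJ and PWK/PhJ and 1 in CAST/EiJ. A/J was the strain with most members called in Drd2+ neurons: Cacna1b, Cacna1c and Cacna2d3 were higher there and Cacna1a, Cacna1e and Cacna2d1 lower. Of these calls, that of Cacna2d1 held under 5 of 9 alternative settings (adjusted p up to 0.165) and that of Cacna1c under 6 of 9 (up to 0.102).

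**Figure D4:**
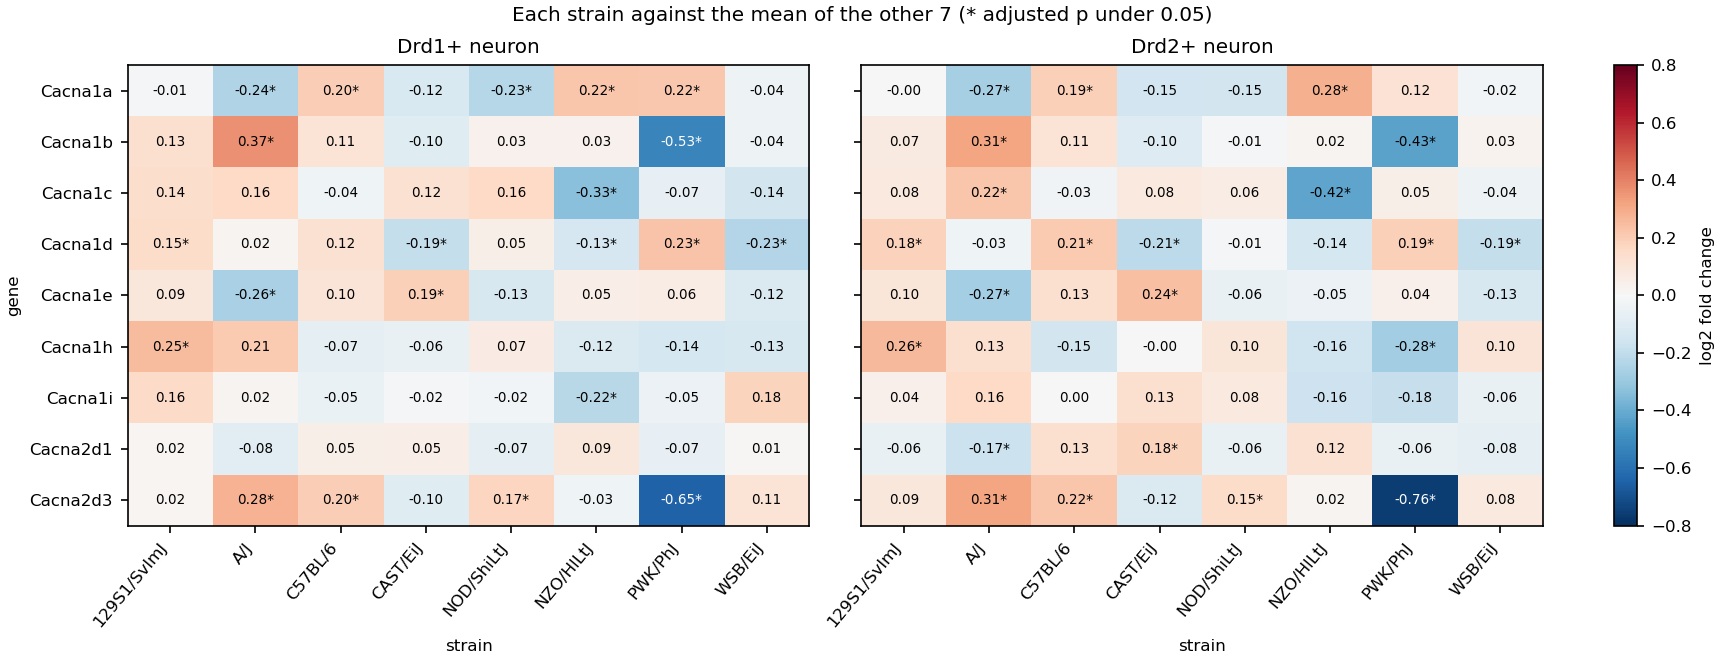
Log2 fold change of each strain (columns) against the mean of the other 7, for 9 genes (rows) in Drd1+ (left) and Drd2+ neurons (right), with a star at an adjusted p under 0.05. The darkest cells are PWK/PhJ for Cacna2d3, at -0.65 and -0.76, and PWK/PhJ for Cacna1b, at -0.53 and -0.43.

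A change of the strain differences from Drd1+ to Drd2+ neurons was tested as edgeR's interaction of strain and cluster, with the mouse as a block. Of 13791 genes 4.58% were called, and of the 9 members tested Cacna1c (adjusted p = 0.00151) and Cacna2d3 (0.0212). The sizes were small. For Cacna1c the within-mouse log2 ratio of Drd2+ over Drd1+ was 0.21 ± 0.08 (SD, n = 4) in PWK/PhJ, 0.20 ± 0.03 in WSB/EiJ and 0.16 ± 0.04 in A/J, against 0.01 ± 0.08 in NOD/ShiLtJ and 0.02 ± 0.05 in NZO/HlLtJ. For Cacna2d3 it was -0.22 ± 0.02 in PWK/PhJ, whose 4 mice (-0.24 to -0.20) lay below the other 28, and -0.05 ± 0.03 in 129S1/SvImJ. The call of Cacna2d3 was lost without any 1 of the 4 batches (adjusted p = 0.0750 to 0.198) and without the filter on low counts (0.201), and that of Cacna1c without batch 2 (0.0626). With strain and batch in the fit in place of the mouse, which leaves the libraries of a mouse unpaired, both were at an adjusted p of 1.

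In macrophages, oligodendrocytes and astrocytes some members followed another order of strains than in Drd1+ neurons. To test whether the strain differences changed, the same interaction was fitted for Drd1+ neurons with each of these clusters, a comparison added after the values were seen. Of all genes, 16.9% were called with oligodendrocytes (13943 tested), 11.4% with astrocytes (14301) and 8.21% with macrophages (14489). Cacna1g was tested with astrocytes only, and the other 9 members with each of these clusters. Cacna1c, Cacna2d1, Cacna1d and Cacna2d3 were called with oligodendrocytes, Cacna1d, Cacna2d1 and Cacna2d3 with astrocytes, and Cacna1a and Cacna1c with macrophages. Of these 9 calls, 4 held under all 7 alternative settings, and they are described first.

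Cacna1a, the P/Q-type gene, had the widest strain difference of the members in any tested cluster, in macrophages. There 129S1/SvImJ mice were at 640, 677, 691 and 693 CPM, A/J mice at 547, 450, 642 and 450 and NOD/ShiLtJ mice at 365, 425, 445 and 613. The other 5 strains were low: NZO/HlLtJ at 131 to 181 CPM, WSB/EiJ at 48.7 to 226, C57BL/6 at 34.6 to 122, PWK/PhJ at 60.0 to 99.8 and CAST/EiJ at 11.9 to 124. All 12 mice of the first 3 strains lay above all 20 others. The fitted span was 3.84 log2 units (strain term adjusted p = 1.48e-28). CAST/EiJ rests on 1, 2, 3 and 1 counts, 7 in all against 272 in 129S1/SvImJ, a ratio of 23.9 per library total with an exact 95% interval of 11.46 to 60.1 that covers counting error only. In Drd1+ neurons the order was another one, with A/J and NOD/ShiLtJ lowest, and the interaction had an adjusted p of 8.97e-62 (3.19e-62 to 1.13e-36 over the settings).

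Values that could move with it were taken in the same libraries. The summed level of the 4 microglia and macrophage markers had strain means of 4916 to 6999 CPM, with 129S1/SvImJ the lowest. The 9 projection neuron genes summed to strain means of 1035 CPM (NZO/HlLtJ) to 1266 (A/J), with 129S1/SvImJ at 1141 ± 317 and CAST/EiJ at 1047 ± 369. Their part in the difference was not tested.

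Cacna1c, the L-type gene, differed in oligodendrocytes. A/J mice were at 150, 161, 203 and 150 CPM and NOD/ShiLtJ mice at 170, 160, 139 and 158, while CAST/EiJ mice were at 23.3, 23.9, 41.6 and 15.9 on 8 to 14 counts each. CAST/EiJ and the A/J and NOD/ShiLtJ mice did not overlap, and the other strains ran from 32.3 to 152 CPM. The fitted span was 2.66 log2 units (adjusted p = 2.96e-26), and the interaction with Drd1+ neurons had an adjusted p of 9.87e-15 (4.99e-35 to 1.52e-09 over the settings). In Drd1+ neurons CAST/EiJ stood at 923 ± 77.3 CPM, not low among the strains. The 3 oligodendrocyte markers summed to 11208 ± 752 CPM in CAST/EiJ, the highest strain mean, and to 9721 ± 727 in A/J, the lowest, and their part in the result was not tested.

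Cacna2d1, an alpha2delta gene, was low in 2 strains in oligodendrocytes. 129S1/SvImJ mice were at 52.3, 37.2, 37.5 and 41.0 CPM and CAST/EiJ mice at 39.9, 59.8, 41.6 and 37.1. The other 24 mice ran from 76.4 to 196 CPM, with C57BL/6 highest at 186, 170, 168 and 196. The 8 low mice did not overlap the rest. The fitted span was 2.00 log2 units (adjusted p = 1.04e-24) and the interaction had an adjusted p of 6.32e-17 (1.86e-34 to 2.16e-10 over the settings), where Drd1+ neurons had a span of 0.15 and no call. The 9 projection neuron genes summed to strain means of 997 to 1126 CPM in oligodendrocytes.

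Cacna1d differed in astrocytes. 129S1/SvImJ mice were at 221, 187, 185 and 171 CPM and C57BL/6 mice at 187, 160, 192 and 208. CAST/EiJ (23.7 to 51.2 CPM), A/J (28.5 to 48.0) and NZO/HlLtJ (46.2 to 52.3) were low, and all 12 of those mice lay below the other 20. The lowest CAST/EiJ library held 1 count. The fitted span was 2.08 log2 units (adjusted p = 1.50e-22), and the interaction with Drd1+ neurons had an adjusted p of 8.62e-19 (1.73e-29 to 5.43e-14 over the settings). The 9 projection neuron genes summed to strain means of 1388 to 1716 CPM in astrocytes. The 4 astrocyte markers had their highest strain mean in CAST/EiJ, 11008 ± 1149 CPM, and their lowest in WSB/EiJ, 9047 ± 604, and their part in the result was not tested.

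**Figure D5:**
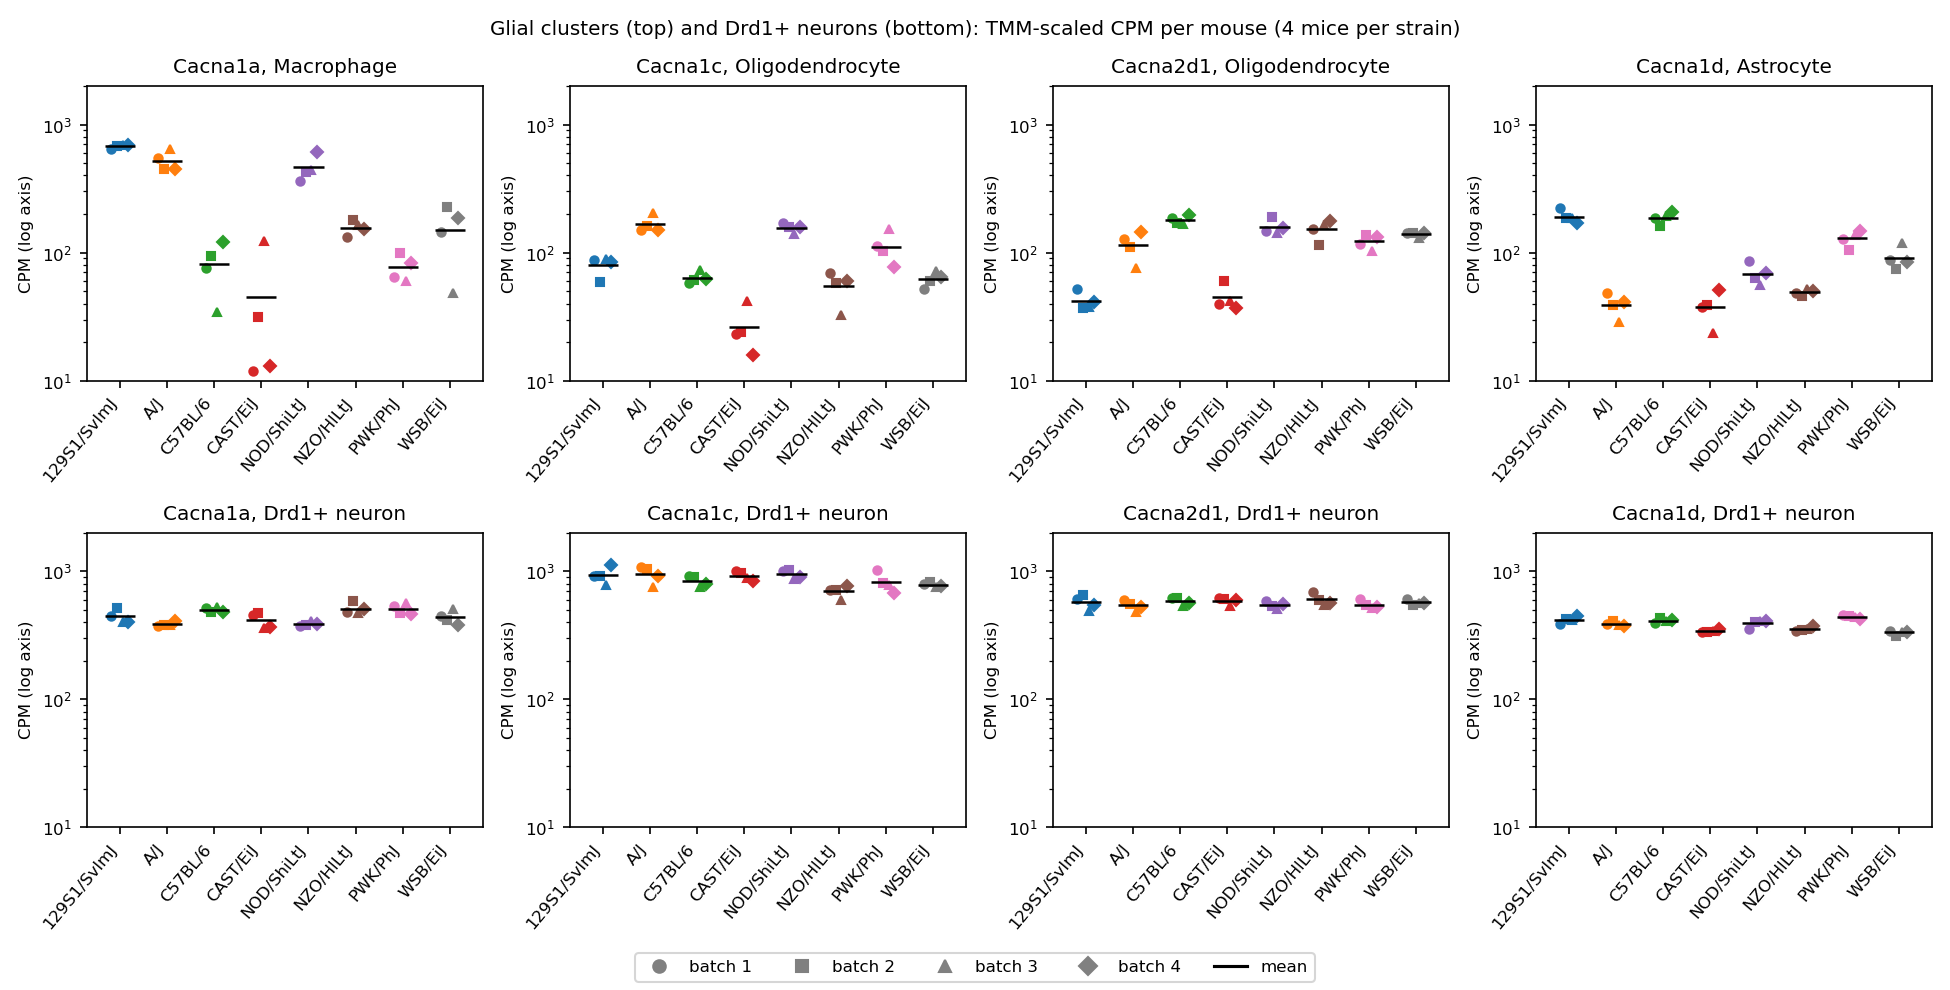
TMM-scaled CPM on a log axis of Cacna1a in macrophages, Cacna1c and Cacna2d1 in oligodendrocytes and Cacna1d in astrocytes (top row), with the same genes in Drd1+ neurons below, 1 symbol per mouse and a black line at each strain's mean. For Cacna1a in macrophages 129S1/SvImJ sits at 640 to 693 CPM and CAST/EiJ at 11.9 to 124, while in Drd1+ neurons the strain means lie between 385 and 511.

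The other 5 interaction calls were each lost without at least 1 batch. Cacna1d in oligodendrocytes (adjusted p = 0.00449) was lost without batch 4 (0.304), and its strain means there were 8.32 ± 5.70 CPM in C57BL/6 to 24.6 ± 9.95 in CAST/EiJ. Cacna2d1 in astrocytes (0.00161) was lost without batch 1 (0.182), with CAST/EiJ at 154 ± 8.45 CPM and PWK/PhJ at 49.0 ± 26.0. Cacna2d3 was lost with oligodendrocytes (0.00239) without batch 1 (0.121) or batch 4 (0.193), and with astrocytes (0.0445) without batch 1 (0.213), 2 (0.247) or 3 (0.0890). The strain term of Cacna2d3 in oligodendrocytes was not called (edgeR adjusted p = 0.0630). Cacna1c in macrophages (3.42e-05) was lost without batch 1 (0.700). CAST/EiJ mice held 2 to 27 counts of it in macrophages and 52.5 to 260 CPM of the plain library totals, without TMM scaling. Cacna1c had not passed the filter on low counts in macrophages alone. It entered the interaction fit because the filter there took both clusters together. Cacna1d in macrophages was called by the strain term (3.74e-04), with CAST/EiJ at 623 ± 59.3 CPM and A/J at 342 ± 32.5. Its interaction was not called (0.191), though it was with strain and batch in place of the mouse block (0.00810).

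Cacna1a was also called by the strain term in oligodendrocytes (edgeR adjusted p = 3.39e-06), at 55.2 ± 7.65 CPM in PWK/PhJ (SD, n = 4) and 19.0 ± 6.47 in NOD/ShiLtJ, and in astrocytes (1.29e-04), at 83.1 ± 29.6 in 129S1/SvImJ and 23.5 ± 13.1 in A/J. Its interaction with Drd1+ neurons was called in neither (0.0740 and 0.0569), though 4 alternative settings called it with astrocytes. The fit with strain and batch in place of the mouse block called it with oligodendrocytes (0.0397). The strain term of Cacna1d in oligodendrocytes (0.0215) was lost without batch 1 (0.0875) or 4 (0.429). In astrocytes that of Cacna2d1 (0.00397) was lost without batch 1 (0.149), and that of Cacna2d3 (0.00495) without batch 1 (0.0761) or 2 (0.136).

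The T-type gene Cacna1g passed the filter for the strain term in the second Drd1+ cluster only. Its strain means there ran from 13.6 ± 9.17 CPM in C57BL/6 to 54.8 ± 15.7 in NOD/ShiLtJ, and the strain term was not called (edgeR adjusted p = 0.0826). It also entered the interaction fit of Drd1+ neurons with astrocytes, where it was not called (0.497). In the same cluster Cacna1e was called (0.00284), with CAST/EiJ at 633 ± 66.9 CPM and C57BL/6 at 371 ± 49.4, so CAST/EiJ was again the highest strain, and its call was lost without batch 2 (0.0729).

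Against these glial values stands the level of projection neuron RNA in the same clusters. The 9 projection neuron genes stood at a median of 9.62% of their Drd1+ level in oligodendrocytes (1.29% for Rarb to 77.4% for Ppp1r1b), 11.8% in astrocytes and 10.8% in macrophages. In oligodendrocytes Cacna1c was at 11.0% and Cacna2d1 at 21.0% of its Drd1+ level, in astrocytes Cacna1d at 22.8%, and in macrophages Cacna1a at 55.3% and Cacna1d at 98.3%. Cacna2d3 stood at 1.40%, 2.09% and 1.69% in the 3 clusters and Cacna1e at 2.27%, 2.48% and 3.11%. How much of the low glial levels comes from neuronal RNA was not tested. Endothelium carried the 9 genes at a median of 38.9% and the members' levels there are not described further.

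Genes of the channel's partners and of calcium handling, listed by role, were read beside the share of all genes called, with no test of the lists. In Drd1+ neurons 9 of the 12 tested genes listed as other auxiliary subunits (14 listed) were called by the strain term, 11 of 17 for channel partners (23 listed) and 15 of 18 for calcium release and extrusion (21 listed), against 61.7% of all genes. The count for channel partners lay close to that share. The list of auxiliary subunits takes in the gamma family, Cacng1 to Cacng8. Several of that family, Cacng8 among them, act on AMPA receptors, so the list's count is not one of calcium channel subunits alone. In Drd2+ neurons the counts were 8 of 12, 12 of 18 and 12 of 17, against 55.9%. The median spans of the lists in Drd1+ neurons were 0.60, 0.51 and 0.50 log2 units, beside 0.62 for all genes. In Drd2+ neurons they were 0.64, 0.58 and 0.53, beside 0.61. Neither of the other 2 pore-forming genes listed, Cacna1f and Cacna1s, passed the filter.

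Among the auxiliary subunits in Drd1+ neurons, Cacna2d2, another alpha2delta gene, ran from 32.2 ± 4.73 CPM in NZO/HlLtJ to 64.3 ± 4.42 in PWK/PhJ (SD, n = 4, edgeR adjusted p = 1.64e-09), so PWK/PhJ was highest for it and lowest for Cacna2d3. Cacnb2, a beta subunit, ran from 1363 ± 265 CPM in NZO/HlLtJ to 2292 ± 335 in CAST/EiJ (0.0206). Cacng8, which belongs to the gamma family and acts on AMPA receptors, ran from 35.6 ± 2.96 in 129S1/SvImJ to 61.0 ± 8.995 in WSB/EiJ (5.52e-08).

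Of the partners, Rims3, of the active zone, ran from 7.93 ± 2.73 CPM in PWK/PhJ to 26.7 ± 5.82 in NZO/HlLtJ (1.50e-09). Cabp1, a calcium-binding regulator of channels, ran from 22.8 ± 4.00 in PWK/PhJ to 63.8 ± 5.08 in NOD/ShiLtJ (1.80e-17), and Rem2, a small GTPase that binds the beta subunit, from 15.3 ± 4.24 in C57BL/6 to 36.6 ± 5.99 in NOD/ShiLtJ (1.55e-08). Of the release and extrusion genes, the release channel gene Ryr1 ran from 27.1 ± 4.41 CPM in 129S1/SvImJ to 96.5 ± 11.3 in C57BL/6 (2.56e-17), the sodium-calcium exchanger gene Slc8a1 from 24.2 ± 24.6 in PWK/PhJ to 69.1 ± 15.3 in NZO/HlLtJ (0.00524), and the calcium pump gene Atp2b4 from 6.21 ± 1.75 in PWK/PhJ to 20.1 ± 5.97 in NZO/HlLtJ (7.14e-05). In Drd2+ neurons Slc8a1 and Atp2b4 were not called (0.320 and 0.0903), and the other 7 were.

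Over the 32 mice in Drd1+ neurons, with batch means removed, the genes most like the called members were, among 9235 genes of at least 10 CPM, Tbck (Pearson's r = 0.91) and A230057D06Rik (0.90) for Cacna2d3, Epha6 (0.87) and Stxbp4 (0.86) for Cacna1b, AC149090.1 (0.83) and Ythdc2 (0.77) for Cacna1e, Gm34907 (0.82) and H2-Ke6 (0.80) for Cacna1d, Rbfox1 (0.82) and Ppp1r1b (0.80) for Cacna1c, Ptprn (0.81) and Irf3 (0.76) for Cacna1a, and Npepps (0.71) and Elavl3 (0.67) for Cacna1h. The mice fall into 8 strains, so these values are given without a p. Differences between strains and between mice of a strain were not separated in them.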

How the data were processed

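Nuclear RNA of 32 striata was read in 4 pooled batches. The deposited matrices hold raw counts (UMIs) per gene and barcode without normalization; the submitters' processing notes name bcl2fastq 2.20.0.422, Cell Ranger ARC 2.0.0 and the builds mm10 and GRCm38. One build served 8 strains, and an effect of strain variants on mapping was not tested. Per the deposited file descriptions, the authors called strains with Demuxlet, filtered nuclei, removed doublets with DoubletFinder and named the clusters; those calls, categories of unit other, were used unchanged, and no further doublet caller was run. The index of accessible regions gives positions only, and accessibility counts were not analysed here. No column of per-sample values was left aside.

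Counts were summed per mouse and cluster. Libraries of at least 10 nuclei were kept, and a cluster was tested with at least 3 mice of every strain, which held for 9 of 18. edgeR 4.0.16 (R 4.3.3) was used with filterByExpr by strain, TMM scaling and a robust quasi-likelihood fit of strain and batch; the strain term has 7 degrees of freedom. CPM across clusters use plain totals, CPM by strain TMM-scaled totals, and log2 CPM a prior count of 2. The batch number pairs the mice, since the labels say that each batch pooled 1 mouse of every strain. Alternatives were RLE size factors, no filter on low counts, DESeq2 1.42.0, no block, at least 20 nuclei, and leaving out each batch. Without the block, the strain fits dropped the batch, and the interaction fits put strain and batch in place of the mouse. The scripts were tested on simulated data.

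All 10 members are named. Of each partner list, the text names the 3 called genes with the widest span in Drd1+ neurons at 10 CPM or more, and per member the 2 genes most like it. The members and lists were chosen with earlier results of these data known. Some genes of the marker lists are not reported here. Promoter windows and gene positions are RefSeq's, build GRCm38.p6. Mice are separate animals. The strain tests set differences against the spread between mice that is left after batch. The interaction tests set them against the spread of the difference between clusters within mice, which edgeR shares in part over the genes of a fit. In the fit with macrophages, F and p of the members matched a test whose spread comes from all genes together. Those p do not measure the gene's own spread between mice.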

Additional observations from a re-analysis of the deposited data

Results flagged for a closer look

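Of 96 groups of 4 mice examined (12 pairs of gene and cluster, 8 strains each) 3 held 1 mouse far from the other 3, and chance alone gives about 1 in 20 such groups. These were Cacna1e in Drd1+ neurons of 129S1/SvImJ, where the mouse of batch 2 was at 868 CPM, Cacna1c in oligodendrocytes of 129S1/SvImJ, where that of batch 2 was at 59.4 CPM, and Cacna2d1 in oligodendrocytes of WSB/EiJ, where that of batch 3 was at 130 CPM.

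The interaction of strain and cluster in edgeR was called for 11 combinations, of which 4 held under all 7 alternative settings (Cacna1a with macrophages, Cacna1c and Cacna2d1 with oligodendrocytes and Cacna1d with astrocytes) and the other 7 were lost under at least 1. Between Drd1+ and Drd2+ neurons these were Cacna1c (adjusted p = 0.00151) and Cacna2d3 (0.0212). Between Drd1+ neurons and oligodendrocytes they were Cacna2d1 (6.32e-17), Cacna1c (9.87e-15), Cacna2d3 (0.00239) and Cacna1d (0.00449). With astrocytes they were Cacna1d (8.62e-19), Cacna2d1 (0.00161) and Cacna2d3 (0.0445), and with macrophages Cacna1a (8.97e-62) and Cacna1c (3.42e-05).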

How the results depend on the processing

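Counts of members called by the strain term stayed within 1.5 times the reported count in Drd1+ (7) and Drd2+ neurons (8), oligodendrocytes (4) and macrophages (2; 3 without the filter on low counts) under every alternative run. Without the replicate block they were 6, 7, 4 and 2, so that Cacna1h lost its call in Drd1+ neurons (adjusted p = 0.0575) and Cacna2d1 in Drd2+ neurons (0.0588). Without the filter on low counts 1 member was called in Nxph1+ interneurons, 2 in endothelium and 1 in Polydendrocyte/Oligodendrocyte, where DESeq2 also called 1, in place of 0. Members called by the interaction of Drd1+ and Drd2+ neurons fell from 2 to 1 without the filter. They fell to 0 with strain and batch in place of the mouse block (adjusted p = 1 for both genes). The causes were not tested. Leaving out 1 batch at a time gave 6 to 7 members in Drd1+ neurons, 8 to 9 in Drd2+ neurons, 3 to 5 in oligodendrocytes, 2 to 4 in astrocytes, 2 to 6 in the second Drd1+ cluster, 0 to 1 in Nxph1+ interneurons, and 0 to 1 for that interaction. Pairs of member and strain called were 13 to 17 in Drd1+ neurons (21 with all batches) and 17 to 17 in Drd2+ neurons (22). The median within-mouse ratio of Cacna1h, 0.03, ran from -0.0123 without batch 4 to 0.115 without batch 2. A minimum of 20 nuclei could not be run in endothelium and Polydendrocyte/Oligodendrocyte. With 27325 to 365425 counts per macrophage library, a gene at 10 CPM has few counts, which limits what can be seen there.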

Other observations

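In macrophages, 2 genes of auxiliary subunits passed the filter on low counts, and both were called by edgeR's strain term (chosen for naming after their values were seen), against 24.8% of all genes tested there. Genes near the floor pass that filter through the strains where they are high, so these calls carry no weight as a count. Cacnb2 ran from 138 ± 27.0 CPM (SD, n = 4) in WSB/EiJ to 801 ± 135 in 129S1/SvImJ (adjusted p = 5.28e-19), and Cacnb4 from 20.5 ± 26.1 in NZO/HlLtJ, on 8 counts in all, to 273 ± 120 in 129S1/SvImJ (1.75e-06). In oligodendrocytes 3 of 8 genes of that list were called, against 34.8% of all genes tested. Cacna2d4 ran from 5.93 ± 1.04 CPM in PWK/PhJ, on 11 counts, to 70.4 ± 11.3 in A/J (2.44e-21). Cacng7, of the gamma family, ran from 21.7 ± 3.91 in PWK/PhJ to 58.6 ± 6.35 in A/J (1.40e-05), and Cacnb4 from 224 ± 14.0 in NZO/HlLtJ to 434 ± 23.9 in CAST/EiJ (3.90e-11).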
